A study of Mus musculus with 9 samples.

Results

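The hypothalamic expression of the enzymes that handle glutathione, thioredoxin and reactive oxygen was compared between Clic1 KO and WT mice. The genes were chosen by name: the glutathione transferases (Gst), glutathione peroxidases (Gpx), peroxiredoxins (Prdx), thioredoxins (Txn) and superoxide dismutases (Sod), together with Gclc, Gclm, Gss, Gsr, Cat, Hmox1, Hmox2, Nqo1, Srxn1, Nfe2l2 and Keap1. Of the 14351 genes in the expression table, 42 met this rule. The names also match 11 further protein-coding genes of the annotation that are not in the table analysed here (Gpx2, Gpx5, Gpx6, Gsta1, Gsta2, Gstm3, Gsto2, Gstp2, Gstp3, Gstt4 and Prdx6b). All 42 genes had passed the authors' filter on low values, and 35 of them had a mean of at least 5 CPM (counts scaled to the size of each library, as normalized by the authors).

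Clic1 encodes a chloride intracellular channel protein whose soluble form has the fold of a glutathione transferase. Glutathione is a small thiol made from glutamate, cysteine and glycine, and it is the main soluble reducing agent of brain cells. Glutathione peroxidases spend it to reduce peroxides, glutathione transferases couple it to reactive compounds, and glutathione reductase regenerates it with NADPH. Most peroxiredoxins reduce peroxides through thioredoxin, superoxide dismutases convert superoxide to hydrogen peroxide, and catalase breaks hydrogen peroxide down. The transcription factor Nrf2 (Nfe2l2), held in check by Keap1, drives many of these genes through antioxidant response elements in their promoters.

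RNA from the hypothalamus of male mice fed normal chow was sequenced, 1 library per mouse. The KO group held 5 libraries (replicates 2, 4, 6, 8 and 10) of whole-body Clic1 KO mice and the WT group 4 libraries (replicates 1, 3, 9 and 11) of wild-type littermates. The study's methods place the line on a CD-1 background, whereas the labels give the strain as C57b/6J and mention adipose tissue in the treatment protocol beside a hypothalamic source. No age was given for these mice. None of 7 adipocyte markers was in the table, and all 12 hypothalamic markers were, from Pomc and Agrp to Nkx2-1. Replicate 10 carries conflicting labels: its title and treatment field call it WT, its description and the study place it with the KO libraries. It was grouped as KO here, and results that rest on it are also given without it or with it as WT. KO replicate 10 was the most deeply sequenced library, at an estimated 20.8 M reads on the genes of the table against 5.47 to 10.98 M in the other 8, and for 58.5% of all genes it held the highest or the lowest value of the 9 libraries. Clic1 itself, a check on the labels, was at 1.93, 1.32, 0.733, 1.25 and 1.43 CPM in the KO libraries and 5.52, 4.66, 5.30 and 3.58 CPM in the WT libraries, replicate 10 included among the low values. In limma Clic1 had a log2 fold change of -1.80 with a standard error of 0.27 (adjusted p = 0.0153), and of -1.51 with replicate 10 as WT. Values per library are given below in the order of the replicates above, and gene positions are those of GENCODE M21 on GRCm38.

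Gstp1 and its paralog Gstp2 show how closely some of these genes resemble each other, which bears on how reads could be assigned. Over the 630 bases of the Gstp1 coding sequence the pair differ at 12 positions (98.1% identity), and 6 of these lie within bases 1 to 60, shown here 5′ to 3′ from the GENCODE M21 transcripts with the differing bases in capitals.
Gstp1: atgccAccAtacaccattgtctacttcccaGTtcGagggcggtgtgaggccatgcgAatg
Gstp2: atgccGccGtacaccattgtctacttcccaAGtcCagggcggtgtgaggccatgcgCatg
The authors' counting tool shares ambiguous reads out between genes, and Gstp2 is not in the table. Near-identical transcripts of other genes (95% identity or more, along 30% or more of the coding sequence) were found for 8 of the 42 genes: Gstp1, Gstm1, Gstt3, Gpx4, Prdx1, Prdx2, Sod1 and Txn1. None of these copies is in the table, so their levels are uncertain to that extent. Among the 42 genes themselves the closest pair, Gstm1 and Gstm2, shared 85.9% of coding bases.

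No gene of this set differed between Clic1 KO and WT mice past the adjusted threshold of 0.05 in limma, beside a background of 0.286% of all genes called. The smallest unadjusted p-values belonged to Gstp1, with a log2 fold change of -0.51 in KO mice, and to Gsr, with 0.27. Gstm1 and Gstt1 were lower and Gsr was higher in every KO library than in every WT library. The median log2 fold change of the 42 genes was -0.016 (0.00089 over all genes), with 20 positive and 22 negative values, and it was positive in 3 alternatives. The single values lay between -0.51 and 0.60.

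An unadjusted p under 0.05 was found for 8 of the 42 genes (19.0%), where 6.5% of all genes had one. Higher in KO were Gsr and Gpx8 (2 genes, with a background of 3.44%), and lower were Gstp1, Gstm1, Gss, Gpx3, Gstt1 and Prdx3 (6 genes, with a background of 3.07%). The lowest adjusted p was 0.356. limma-voom on reads estimated from the CPM values also gave 8 genes at an unadjusted p under 0.05, with 7.83% of all genes, and 0 past the adjusted threshold. Libraries of the 2 groups did not overlap for 3 genes (7.14%), with a background of 3.41%: 1 gene was higher (background 1.67%) and 2 were lower (background 1.74%). The median size of the log2 fold change was 0.127 for the 42 genes and 0.0933 for all genes, and the median within-group SD was 0.208 and 0.183. The 95% interval of the fold change stayed within 0.5 on the log2 scale for 26 genes and within 1 for 37, so that larger changes lay outside the intervals for most of the set.

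Without KO replicate 10, 11 of the 42 genes (26.2%) had an unadjusted p under 0.05, with a background of 10.5%. Of these, 5 were higher (background 5.57%) and 6 lower (background 4.96%) in KO mice, and 6 were among the 8 found with all libraries. Gstt1 and Prdx3 then had unadjusted p-values of 0.0548 and 0.0554, and the genes added were Gpx1, Gstz1, Nqo1, Gstm2 and Prdx2. Gstp1 then passed the adjusted threshold (log2 fold change -0.59 ± 0.11 SE, adjusted p = 0.0197 from limma), with a background of 0.606% of all genes called. Libraries did not overlap for 4 genes, with a background of 6.06%: Gsr was higher, and Gstm1, Gstt1 and Gpx1 were lower. With replicate 10 as WT, 10 genes had an unadjusted p under 0.05 (background 6.65%), none passed the adjusted threshold (background 0.0348%) and Gpx1 was the only gene whose libraries did not overlap (background 3.07%). The log2 fold change of Gss was -0.33 without replicate 10 and -0.26 with it as WT, that of Gstt1 -0.21 and -0.18, that of Prdx3 -0.20 and -0.13, that of Gpx8 0.66 and 0.59, and that of Nqo1 0.57 and 0.52.

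**Figure D1:**
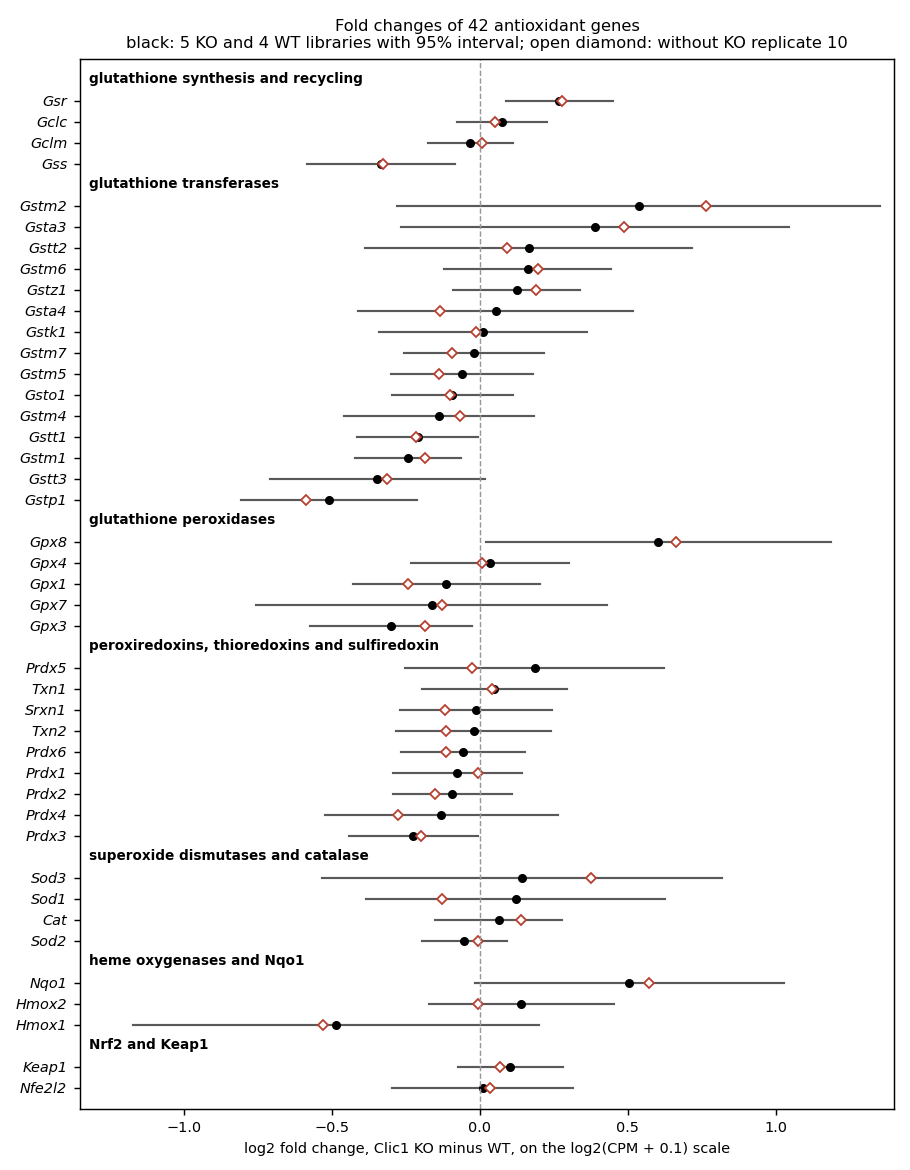
Log2 fold change (Clic1 KO minus WT, on the log2(CPM + 0.1) scale) of each of the 42 genes, grouped by role, with black points and 95% intervals from limma on all 9 libraries and open diamonds without KO replicate 10. Gstp1 (-0.51) and Gpx8 (0.60) lie at the ends, and most intervals cross the dashed line at 0.

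Levels differed far more between genes than between groups. Per kilobase of transcript, Sod1 was highest at a mean of 265 CPM per kb, followed by Gstp1 at 224, Gpx3 at 177, Gstm1 at 124 and Gpx4 at 119. The length used was that of the longest annotated protein-coding transcript of each gene, and the order depends on this choice. Sod2 had the highest mean of the set, 323 CPM, but only 55.2 CPM per kb over 5861 bases. The lowest were Gsta3 at 1.13, Gpx7 at 1.85 and Gstt2 at 1.98 CPM per kb. The ranges of Sod1 and Gstp1 over the 9 libraries overlapped. In Sod1 and in Prdx5 the upper end of the range was KO replicate 10, far above the other libraries.

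**Figure D2:**
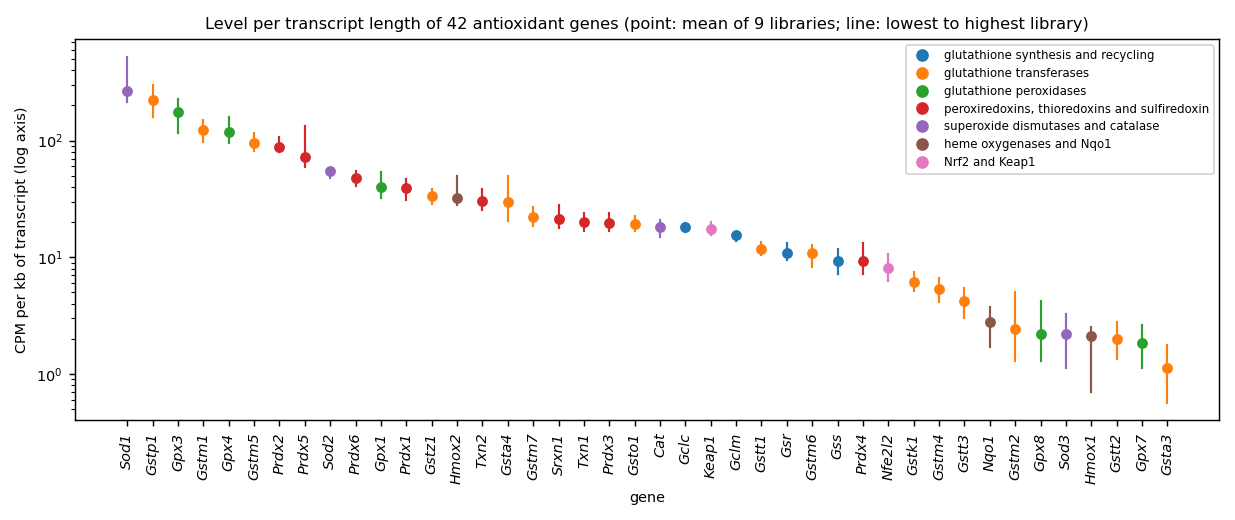
Mean level of each of the 42 genes in CPM per kilobase of the longest annotated transcript (log axis), coloured by role. A line runs from the lowest to the highest of the 9 libraries. Sod1 (265) and Gstp1 (224) head the order and Gsta3 (1.13) ends it.

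Glutathione synthesis and recycling was represented by 4 genes. Gclc and Gclm encode the catalytic and modifier subunits of glutamate-cysteine ligase, which performs the rate-limiting step, Gss encodes glutathione synthetase, and Gsr encodes glutathione reductase. The 4 genes did not share a direction: the fold changes of the ligase subunits were near 0, Gss was lower and Gsr higher in KO mice. Gsr (ENSMUSG00000031584, chromosome 8, 33652523 to 33698163, plus strand) was at 31.2, 35.1, 28.6, 32.7 and 30.9 CPM in the KO libraries and 25.1, 25.7, 26.4 and 27.8 CPM in the WT libraries. The lowest KO library exceeded the highest WT library. The level averaged 31.7 ± 2.39 CPM over the KO libraries (SD, n = 5) and 26.2 ± 1.19 CPM over the WT libraries (SD, n = 4). For Gsr limma gave a log2 fold change of 0.27 with a standard error of 0.083 (adjusted p = 0.506), and the exact permutation test gave p = 0.0159, the smallest that 5 against 4 libraries allow. Any gene whose groups do not overlap has this exact p, as do Gstm1 and Gstt1 below, so it adds nothing to the lack of overlap. The difference was 0.28 without KO replicate 10 and 0.23 with it as WT.

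Gss (ENSMUSG00000027610, chromosome 2, 155563181 to 155592810, minus strand) was at 18.9, 17.5, 14.0, 15.6 and 16.1 CPM in the KO libraries and 19.4, 22.9, 18.1 and 22.5 CPM in the WT libraries. KO replicates 4, 6, 8 and 10 lay below every WT library, and KO replicate 2 lay within the WT range. For Gss limma gave a log2 fold change of -0.33 with a standard error of 0.11 (adjusted p = 0.597, exact permutation p = 0.0317). Gclc was at 59.4, 59.7, 62.5, 67.2 and 67.5 CPM in the KO libraries and 59.1, 56.6, 63.0 and 61.2 CPM in the WT libraries, and the groups overlapped. Gclc had a log2 fold change of 0.076 with a 95% interval of -0.077 to 0.23. Gclm was at 86.02, 89.2, 91.7, 85.7 and 76.8 CPM in the KO libraries and 89.98, 88.3, 85.9 and 86.4 CPM in the WT libraries, with KO replicate 10 the lowest. Gclm had a log2 fold change of -0.031 with a 95% interval of -0.18 to 0.11, and 0.0083 without KO replicate 10. The sum of the 4 genes was 197 ± 4.30 CPM over the KO libraries (SD, n = 5) and 195 ± 2.16 CPM over the WT libraries (SD, n = 4).

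The glutathione transferases formed the largest group, with 15 genes of the alpha, kappa, mu, omega, pi, theta and zeta classes. Their log2 fold changes ranged from -0.51 to 0.54 with a median of -0.020, none passed the adjusted threshold, and the 3 with an unadjusted p under 0.05 (Gstp1, Gstm1 and Gstt1) were all lower in KO mice. The most abundant per kilobase, Gstp1 and Gstm1, were both among them, and the sum over the 15 genes was 587 ± 32.1 CPM over the KO libraries (SD, n = 5) and 678 ± 63.5 CPM over the WT libraries (SD, n = 4).

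Gstp1 (ENSMUSG00000060803, chromosome 19, 4035407 to 4037985, minus strand) encodes the pi-class transferase, long used in brain sections as a marker of oligodendrocytes. Gstp1 was at 130.03, 187, 134, 135 and 189.7 CPM in the KO libraries and 244, 215, 239.5 and 179 CPM in the WT libraries. KO replicates 2, 6 and 8 lay well below the WT range, whereas KO replicates 4 and 10 reached the level of WT replicate 11, so that the groups overlapped. The level averaged 155 ± 30.4 CPM over the KO libraries (SD, n = 5) and 219 ± 29.8 CPM over the WT libraries (SD, n = 4). For Gstp1 limma gave a log2 fold change of -0.51 with a standard error of 0.14 (adjusted p = 0.356), and the exact permutation test gave p = 0.0476. Over all alternatives the fold change stayed between -0.60 and -0.45, with adjusted p-values from 0.0150 to 0.823. Of 10 oligodendrocyte markers, 9 had negative fold changes (median -0.10) and 1, Mbp, had an unadjusted p under 0.05. Their summed level was 4204, 3887, 3880, 4078 and 3722 CPM in the KO libraries and 3950.4, 4449.5, 4328 and 4846 CPM in the WT libraries. Within each group the library with the highest sum had the lowest Gstp1 level, and the library with the lowest sum had the highest. The part of these markers in the Gstp1 result was not tested. In bulk tissue, fewer cells of a type and less RNA per cell cannot be told apart.

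Gstm1 (ENSMUSG00000058135, chromosome 3, 108012255 to 108017973, minus strand), a mu-class transferase abundant in astrocytes, was at 159, 151, 145, 159 and 125 CPM in the KO libraries and 168, 175, 192 and 163 CPM in the WT libraries. Each KO library lay below each WT library, with KO replicates 2 and 8 closest to WT replicate 11. For Gstm1 limma gave a log2 fold change of -0.24 with a standard error of 0.082 (adjusted p = 0.577, exact permutation p = 0.0159), and -0.18 without KO replicate 10, the lowest library. With that library as WT the groups overlapped and the fold change was -0.088. The 10 astrocyte markers had a median log2 fold change of 0.0057, with a summed level of 5549 to 5928 CPM in the KO and 5249.6 to 5780.1 CPM in the WT libraries. Slc1a2 was the largest part of that sum, at a mean of 2950.5 CPM in the KO and 2725.9 CPM in the WT libraries. Of the 10, 5 had positive fold changes, and values ran from -0.20 (Agt, unadjusted p = 0.0461 in limma) to 0.14 (Gfap). The part of these markers in the Gstm1 result was not tested.

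Gstt1 (ENSMUSG00000001663, chromosome 10, 75783813 to 75798584, minus strand), a theta-class enzyme that acts on small halogenated compounds, was at 12.7, 11.6, 11.5, 12.51 and 12.3 CPM in the KO libraries and 14.0, 14.3, 14.8 and 13.1 CPM in the WT libraries. The groups did not overlap, though the highest KO and the lowest WT library were close. For Gstt1 limma gave a log2 fold change of -0.21 with a standard error of 0.094 (adjusted p = 0.759, exact permutation p = 0.0159). Its paralog Gstt3 was at 5.67, 7.25, 6.59, 9.23 and 6.33 CPM in the KO libraries and 9.59, 7.05, 10.3 and 8.68 CPM in the WT libraries. KO replicates 2, 6 and 10 lay below every WT library and the others overlapped. For Gstt3 the log2 fold change was -0.35 with a 95% interval of -0.71 to 0.018. Gstt3 matches Gm20441, another gene of the annotation, at 100% identity over 525 bases.

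Gstm5, the mu-class gene next in level to Gstm1, was at 76.3, 86.7, 83.9, 86.9 and 109.6 CPM in the KO libraries and 93.6, 84.2, 109 and 82.6 CPM in the WT libraries. KO replicate 10 and WT replicate 9 were the highest of their groups. For Gstm5 the log2 fold change was -0.059 with a 95% interval of -0.30 to 0.18. The other 10 transferases (Gsta3, Gsta4, Gstk1, Gstm2, Gstm4, Gstm6, Gstm7, Gsto1, Gstt2 and Gstz1) had mean levels of 1.65 CPM (Gsta3) to 54.9 CPM (Gstz1). Their log2 fold changes ran from -0.14 (Gstm4) to 0.54 (Gstm2), with unadjusted p-values of 0.178 or more. Among them, Gsta4, which conjugates lipid peroxidation products such as hydroxynonenal, reached 48.4 CPM in KO replicate 10 against 20.03 to 34.9 CPM in the other 8 libraries. Gstz1, the maleylacetoacetate isomerase of tyrosine breakdown, had a log2 fold change of 0.12, and of 0.19 without KO replicate 10 (unadjusted p = 0.0213).

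**Figure D3:**
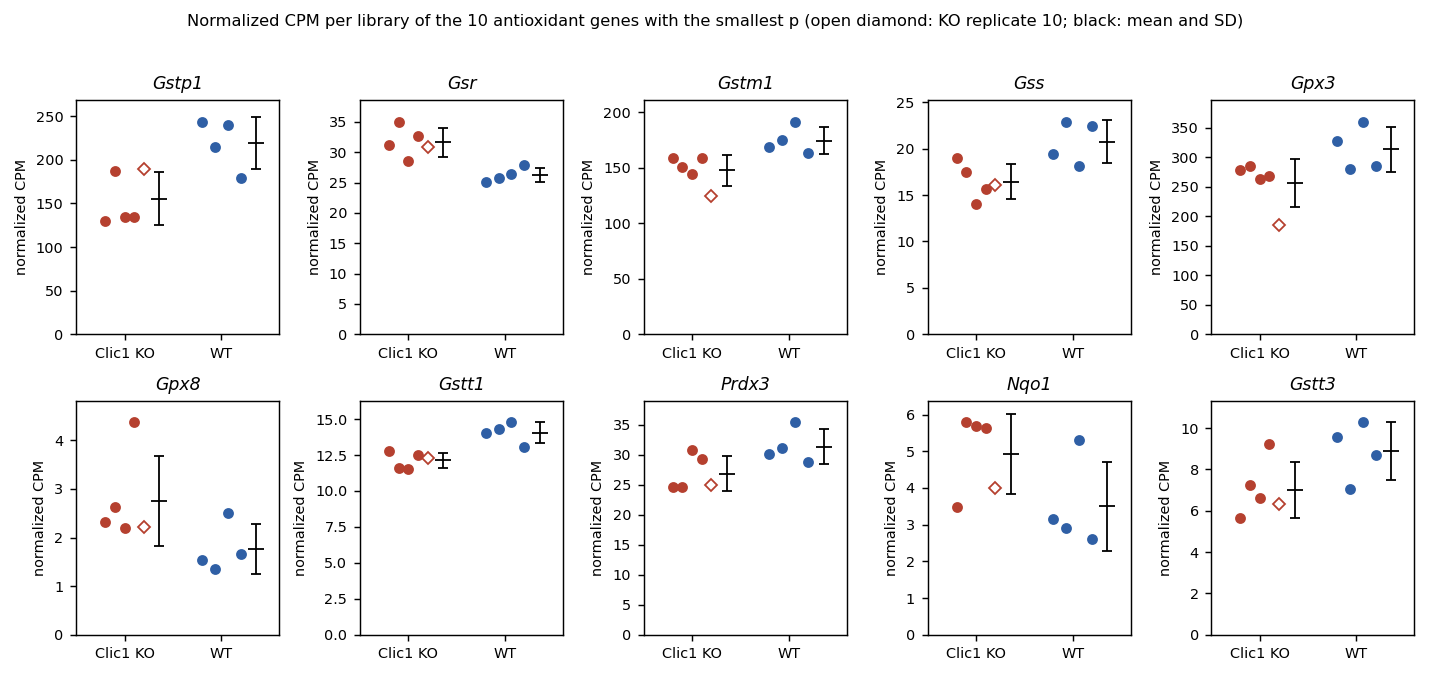
Normalized CPM of the 10 genes with the smallest p in each library, with KO libraries in red, WT libraries in blue, KO replicate 10 as an open diamond and the mean and SD of each group in black; axes start at 0. The groups are separate for Gsr, Gstm1 and Gstt1 and overlap for the other 7.

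Glutathione peroxidases were represented by Gpx1, Gpx3, Gpx4, Gpx7 and Gpx8. Gpx1 is the cytosolic enzyme, Gpx3 is secreted, Gpx4 reduces lipid hydroperoxides in membranes, and Gpx7 and Gpx8 reside in the endoplasmic reticulum. None passed the adjusted threshold, Gpx3 was lower and Gpx8 higher in KO mice at an unadjusted p under 0.05. Gpx3 (ENSMUSG00000018339, chromosome 11, 54902453 to 54910377, plus strand) was at 279, 285, 264, 268 and 184 CPM in the KO libraries and 328, 279, 360.3 and 285 CPM in the WT libraries. The groups met at WT replicates 3 and 11, and KO replicate 10 was far below the rest. For Gpx3 limma gave a log2 fold change of -0.30 with a standard error of 0.13 (adjusted p = 0.730, exact permutation p = 0.0317). It was -0.19 without KO replicate 10 (unadjusted p = 0.0167) and -0.035 with that library as WT.

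Gpx1 was at 34.8, 36.8, 38.3, 38.3 and 57.9 CPM in the KO libraries and 41.3, 39.9, 53.3 and 41.9 CPM in the WT libraries. All KO libraries but replicate 10 lay below every WT library, and replicate 10 lay above every one. For Gpx1 the log2 fold change was -0.11 with a 95% interval of -0.43 to 0.20 over all libraries, -0.24 (unadjusted p = 0.0144, adjusted p = 0.310 from limma) without replicate 10, and -0.32 with it as WT. Gpx4 was at 120.2, 115, 117, 113 and 127 CPM in the KO libraries and 113, 94.6, 158 and 105 CPM in the WT libraries, with WT replicate 9 the highest of all. Gpx4 had a log2 fold change of 0.034 with a 95% interval of -0.23 to 0.30. Gpx7, the other low peroxidase, ranged from 1.45 to 3.40 CPM over the 9 libraries, with a log2 fold change of -0.16 (95% interval -0.76 to 0.43).

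Gpx8 (ENSMUSG00000021760, chromosome 13, 113042753 to 113046410, minus strand) was a low gene, at 2.32, 2.64, 2.20, 4.38 and 2.23 CPM in the KO libraries and 1.54, 1.35, 2.5 and 1.65 CPM in the WT libraries. KO replicate 8 was the highest library, WT replicate 9 lay within the KO range, and the other 3 WT libraries lay below every KO library. For Gpx8 limma gave a log2 fold change of 0.60 with a standard error of 0.27 (adjusted p = 0.759, exact permutation p = 0.0635). The sum of markers of meninges and fibroblasts was highest in the same 4 libraries as Gpx8. This did not hold for each marker. Dcn and Lum were higher in WT replicate 1 than in KO replicate 2, and Col1a1 was higher in KO replicate 10 than in WT replicate 9. The summed level of 7 such markers (Dcn, Lum, Col1a1, Col1a2, Col3a1, Igf2 and Ogn) was 217, 309.7, 90.7, 385 and 86.2 CPM in the KO and 98.5, 96.4, 208 and 101 CPM in the WT libraries. All 7 were measured, 6 had positive fold changes, and Col1a1, Col1a2 and Col3a1 had an unadjusted p under 0.05. KO replicates 2, 4 and 8 and WT replicate 9 were the 4 highest libraries for the marker sum and for Gpx8, and also for Gstm2 and Sod3, a comparison chosen after their values were seen. For Gpx8 the lowest of these 4, KO replicate 2 (2.32 CPM), was close to KO replicates 10 and 6 (2.23 and 2.20 CPM). KO replicates 6 and 10 had the lowest marker sums of the 9 libraries and held more Gpx8 than WT replicates 1, 3 and 11. Igf2 was the largest single part of each sum, and its lowest value (23.2 CPM) was that of KO replicate 10. The low sum of that library did not hold for every marker. Its Col1a1, Col1a2 and Col3a1 each exceeded those of WT replicates 1, 3 and 11, whereas its Dcn, Ogn and Igf2 lay below them. The part of the 7 markers in the values of Gpx8, Gstm2 and Sod3 was not tested.

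Gstm2, a mu-class transferase, was at 2.68, 3.81, 1.96, 5.32 and 1.4 CPM in the KO libraries and 1.70, 1.58, 3.17 and 1.38 CPM in the WT libraries, a log2 fold change of 0.54 with a 95% interval of -0.28 to 1.35. Sod3, the extracellular superoxide dismutase, was at 10.6, 11.3, 5.49, 12.2 and 4.15 CPM in the KO libraries and 6.51, 6.42, 10.3 and 6.47 CPM in the WT libraries, a log2 fold change of 0.14 with a 95% interval of -0.53 to 0.82. In both genes KO replicates 6 and 10 were the lowest of the KO group and WT replicate 9 was the highest of the WT group, and the SD of the KO libraries exceeded the difference between the group means.

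**Figure D4:**
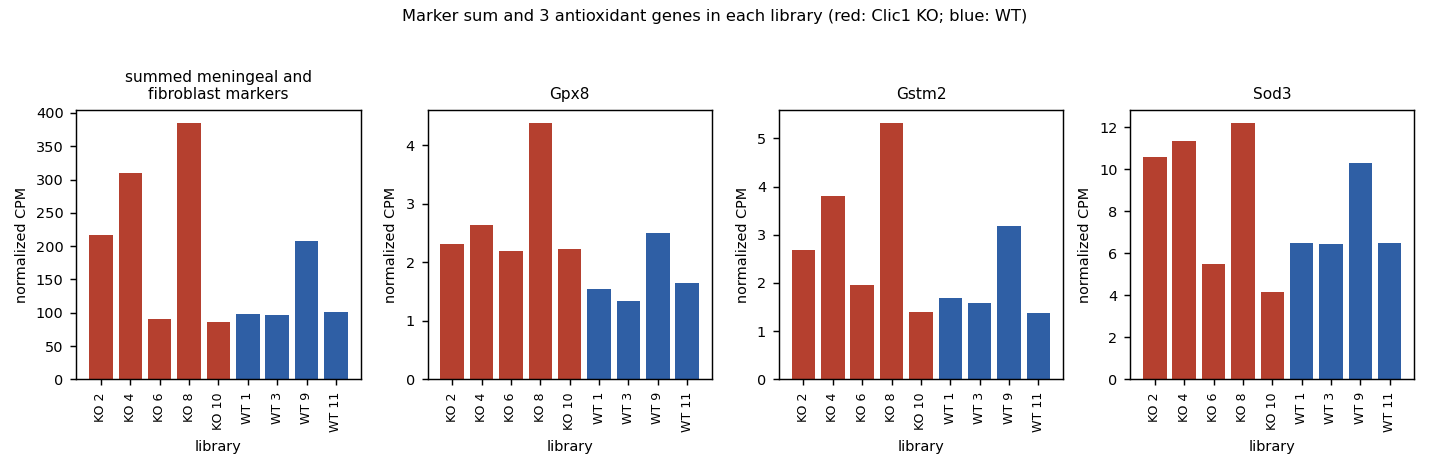
Normalized CPM in each library (KO in red, WT in blue) of the summed 7 meningeal and fibroblast markers, Gpx8, Gstm2 and Sod3. In each panel KO 2, KO 4, KO 8 and WT 9 are the 4 highest bars. For Gpx8, KO 2 is close to KO 10 and KO 6.

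Peroxiredoxins, thioredoxins and sulfiredoxin were represented by 9 genes. Prdx1, Prdx2 and Prdx6 are mainly cytosolic, Prdx3 mitochondrial and Prdx4 of the endoplasmic reticulum, Prdx5 is found in several compartments, Txn1 and Txn2 are the cytosolic and mitochondrial thioredoxins, and Srxn1 restores overoxidized peroxiredoxins. Of the 9, 7 had negative fold changes (median -0.057), none passed the adjusted threshold and 1, Prdx3, had an unadjusted p under 0.05. Prdx3 (ENSMUSG00000024997, chromosome 19, 60864051 to 60874556, minus strand) was at 24.7, 24.6, 30.8, 29.4 and 24.9 CPM in the KO libraries and 30.1, 31.1, 35.5 and 28.8 CPM in the WT libraries. KO replicates 2, 4 and 10 lay below the WT range and KO replicates 6 and 8 within it. For Prdx3 limma gave a log2 fold change of -0.22 with a standard error of 0.10 (adjusted p = 0.759, exact permutation p = 0.0952).

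Prdx2, the most abundant of the 9 per kilobase at 88.8 CPM per kb, was at 130.5, 138, 135, 129 and 162 CPM in the KO libraries and 147, 132, 173 and 141 CPM in the WT libraries. KO replicate 10 and WT replicate 9 were the highest of their groups. For Prdx2 the log2 fold change was -0.092 with a 95% interval of -0.29 to 0.11, and -0.15 without KO replicate 10 (unadjusted p = 0.0477). Prdx6 was at 115, 101, 97.99, 117 and 131 CPM in the KO libraries and 121, 109.8, 130.3 and 106 CPM in the WT libraries, with KO replicate 10 again high. Prdx6 had a log2 fold change of -0.057 with a 95% interval of -0.27 to 0.15. Prdx5 was at 89.2, 79.1, 80.1, 77.8 and 169 CPM in the KO libraries and 75.6, 80.3, 97.1 and 79.9 CPM in the WT libraries. KO replicate 10 was 2.08 times the mean of the other KO libraries, which lay within the WT range. For Prdx5 the log2 fold change was 0.19 with all libraries, -0.025 without replicate 10 and -0.23 with it as WT. The other genes of the group had means of 9.24 CPM (Prdx4) to 89.4 CPM (Prdx1) and fold changes of -0.13 (Prdx4) to 0.049 (Txn1) on the log2 scale.

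The superoxide dismutases and catalase had no member past the adjusted threshold or with an unadjusted p under 0.05. Sod2, the mitochondrial manganese enzyme, was at 319, 321, 342, 330.2 and 280.1 CPM in the KO libraries and 332, 341, 314 and 331 CPM in the WT libraries, with KO replicate 10 the lowest. For Sod2 the log2 fold change was -0.052 with a 95% interval of -0.20 to 0.091. Sod1, the cytosolic copper and zinc enzyme, was at 143, 146, 144, 136 and 335 CPM in the KO libraries and 149.8, 140.3, 191 and 144 CPM in the WT libraries. KO replicate 10 was 2.36 times the mean of the other KO libraries, and those 4 lay in the range of the lower WT libraries or below. For Sod1 the log2 fold change was 0.12 with all libraries, -0.13 without replicate 10 and -0.35 with it as WT. Cat was at 49.3, 48.1, 51.5, 54.3 and 39.1 CPM in the KO libraries and 43.9, 45.3, 44.3 and 51.2 CPM in the WT libraries, and the groups overlapped. Cat had a log2 fold change of 0.063 with a 95% interval of -0.15 to 0.28.

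Heme oxygenases break heme down to biliverdin, carbon monoxide and iron, Hmox1 being the inducible and Hmox2 the constitutive form, and Nqo1 reduces quinones. Nqo1 and Hmox1 are classical Nrf2 targets. The 2 low genes, Nqo1 and Hmox1, had fold changes of opposite sign and neither passed the threshold. Nqo1 (ENSMUSG00000003849, chromosome 8, 107388225 to 107403206, minus strand) was at 3.48, 5.80, 5.68, 5.63 and 4.01 CPM in the KO libraries and 3.17, 2.90, 5.30 and 2.62 CPM in the WT libraries. KO replicates 4, 6 and 8 lay above every WT library, and WT replicate 9 lay near them, above the other KO libraries. For Nqo1 limma gave a log2 fold change of 0.51 with a standard error of 0.24 (adjusted p = 0.775, exact permutation p = 0.0952). Hmox1 was at 2.83, 3.69, 1.1, 3.91 and 3.07 CPM in the KO libraries and 3.71, 3.73, 3.80 and 3.99 CPM in the WT libraries. The 4 WT libraries lay close together. KO replicates 2, 4, 6 and 10 lay below every one of them, replicate 4 by a narrow margin and replicate 6 by a wide one. KO replicate 8 lay within the WT range. For Hmox1 the log2 fold change was -0.49 with a 95% interval of -1.17 to 0.20. Hmox2 was at 48.8, 53.4, 53.6, 52.4 and 86.4 CPM in the KO libraries and 55.6, 49.8, 53.4 and 50.4 CPM in the WT libraries, and KO replicate 10 alone stood out. Hmox2 had a log2 fold change of 0.14, and -0.0059 without that library.

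Nfe2l2 was at 18.9, 20.8, 15.6, 26.3 and 18.4 CPM in the KO libraries and 20.1, 18.1, 22.3 and 18.0 CPM in the WT libraries, and the groups overlapped throughout. For Nfe2l2 the log2 fold change was 0.010 with a 95% interval of -0.30 to 0.32. Keap1 was at 66.5, 64.6, 67.7, 56.5 and 72.2 CPM in the KO libraries and 64.0, 56.3, 59.5 and 63.7 CPM in the WT libraries. KO replicates 2, 4, 6 and 10 lay above every WT library, replicate 4 by a narrow margin. KO replicate 8 lay near the lowest WT library. For Keap1 the log2 fold change was 0.10 with a 95% interval of -0.074 to 0.28. It was 0.067 without KO replicate 10 and 0.018 with that library as WT.

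The core of the antioxidant response element, TGACNNNGC, was searched on both strands in the 250 bases before each RefSeq start. It was present for 11.5% of the 27025 genes in the promoter table and for 7 of the 35 genes of the set that the table holds (Gclm, Gsta3, Gstm5, Gstm7, Nfe2l2, Prdx1 and Sod1). The other genes of the set (Gclc, Gsr, Gsta4, Gstt2, Hmox1, Prdx6 and Sod3) have no entry there. Elements farther from the start were not searched. The promoters of Gclm and Prdx1, which hold it 134 and 133 bases before the start, and of Gstp1, the gene with the smallest p, in which these letters do not occur in the window, are shown 5′ to 3′ on the strand of the gene (RefSeq, GRCm38.p6), limited to bases outside the transcripts and with the motif in capitals.
Gclm (chr3:122245307-122245556, plus strand): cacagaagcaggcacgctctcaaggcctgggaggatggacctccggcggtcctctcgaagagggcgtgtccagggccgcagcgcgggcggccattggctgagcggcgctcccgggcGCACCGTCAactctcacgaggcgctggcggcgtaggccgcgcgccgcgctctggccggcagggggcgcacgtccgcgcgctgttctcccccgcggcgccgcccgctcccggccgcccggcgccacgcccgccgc
Prdx1 (chr4:116685349-116685543, plus strand): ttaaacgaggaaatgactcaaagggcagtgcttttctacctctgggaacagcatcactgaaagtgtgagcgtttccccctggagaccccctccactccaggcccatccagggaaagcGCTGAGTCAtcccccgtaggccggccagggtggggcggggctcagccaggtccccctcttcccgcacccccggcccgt
Gstp1 (chr19:4037986-4038162, minus strand): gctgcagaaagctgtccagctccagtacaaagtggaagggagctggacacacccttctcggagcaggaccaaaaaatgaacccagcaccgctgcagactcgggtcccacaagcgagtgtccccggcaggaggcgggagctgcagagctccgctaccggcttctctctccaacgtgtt
The 7 genes with the motif had log2 fold changes of -0.076 (Prdx1) to 0.39 (Gsta3), with -0.031 for Gclm, -0.059 for Gstm5, -0.020 for Gstm7, 0.010 for Nfe2l2 and 0.12 for Sod1. None had an unadjusted p under 0.05, where 6.5% of all genes had one. With so few genes, a count of none cannot be told from that share. A match of these letters is a description of the sequence and not evidence of binding.

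**Figure D5:**
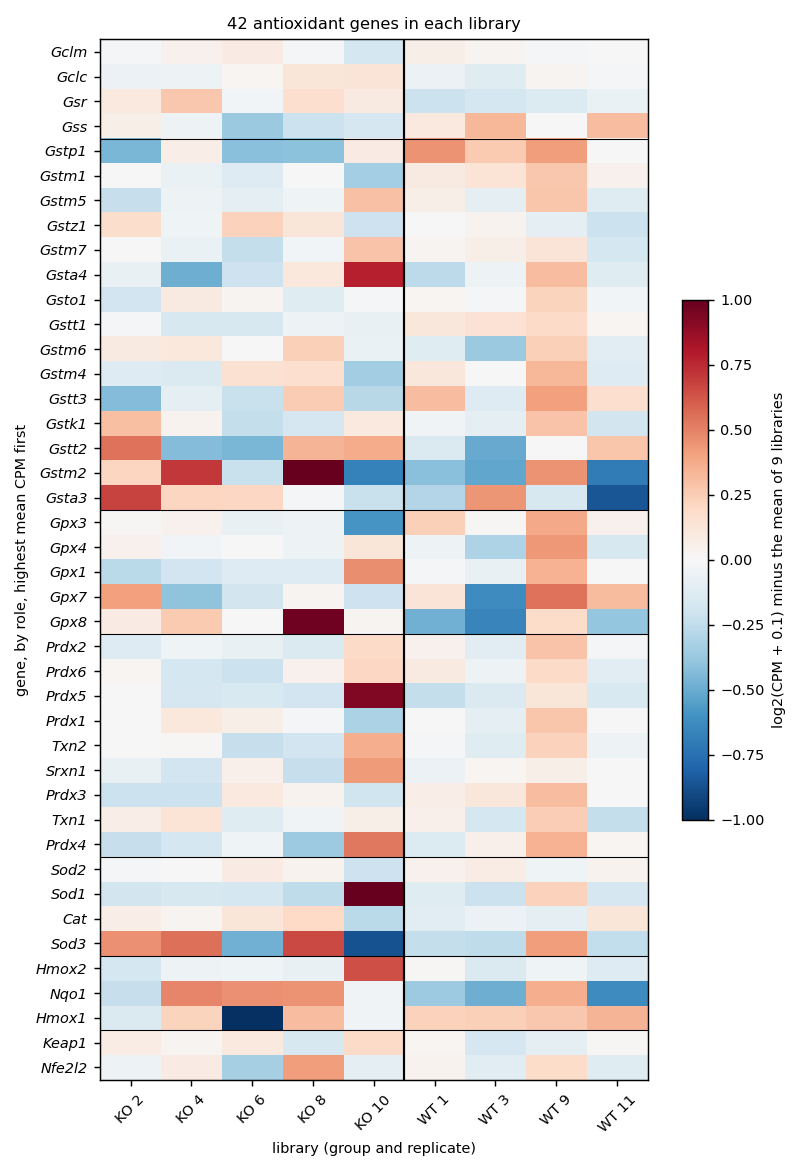
Each of the 42 genes (rows, grouped by role) in each library (columns, KO left and WT right of the line), coloured by log2(CPM + 0.1) minus the mean of the 9 libraries, with the colour scale ending at -1 and 1. The column of KO replicate 10 holds the highest or lowest value for 21 genes, and that of WT replicate 9 the highest for 13.

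Many of the extreme values lay in 2 libraries. KO replicate 10 held the highest value of 13 and the lowest of 8 of the 42 genes, 21 in all, beside 58.5% over all genes. WT replicate 9 held the highest value of 13 and the lowest of none (31.0% of the set, and 21.1% of all genes counting either end). Without KO replicate 10 the median within-group SD was 0.145 for the set and 0.129 for all genes, and 6 of the 42 fold changes had the opposite sign.

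Of the other genes of these pathways, taken from lists of partners, few had a small p. Of 31 measured partners of glutathione and thioredoxin (33 listed), none passed the adjusted threshold, 15 had positive fold changes and the median was -0.0060. Mgst3, a microsomal glutathione transferase, was at 16.0, 16.1, 16.3, 15.9 and 10.8 CPM in the KO libraries and 20.1, 18.2, 27.0 and 20.5 CPM in the WT libraries. Each KO library lay below each WT library, with KO replicate 10 the lowest (1.74% of all genes were lower without overlap). The groups stayed apart without that library and overlapped with it as WT. For Mgst3 the log2 fold change over all libraries was -0.51 with a standard error of 0.15 (unadjusted p = 0.00531, adjusted p = 0.460 from limma). Fold changes of Mgst3 in the other settings for replicate 10 are not given here. It was the only partner with an unadjusted p under 0.05, where 6.5% of all genes had one. Next by p were Ccs, the copper chaperone of Sod1, at 0.37 (95% interval -0.012 to 0.75) and Oplah, the oxoprolinase of the glutathione cycle, at 0.25 (95% interval -0.032 to 0.53).

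The 10 genes that supply NADPH were all measured, with none past the threshold, 3 positive fold changes and a median of -0.035. The smallest p-values among them were those of G6pdx, which opens the pentose phosphate pathway (-0.14, 95% interval -0.35 to 0.078), Idh2 (0.13) and Me1 (-0.077). Of 21 Nrf2 regulators and further targets, 20 were measured and none passed, 15 had positive fold changes and the median was 0.052. Ugdh, which makes UDP-glucuronate (0.15, 95% interval -0.018 to 0.33), the small Maf protein Mafg (-0.12) and the carbonyl reductase Cbr1 (0.23) had the smallest p-values, and Cbr1 was at 97.3 CPM in KO replicate 10 against 44.9 to 51.5 CPM in KO replicates 2, 4, 6 and 8.

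Among 13 measured genes for other proteins with a glutathione transferase fold (14 listed), Clic1 was the only one past the adjusted threshold. The log2 fold change was 0.33 for Vars, the valyl-tRNA synthetase (unadjusted p = 0.0143, adjusted p = 0.622 from limma), and 0.32 for the channel family member Clic6 (unadjusted p = 0.0296, adjusted p = 0.714 from limma), both higher in KO mice. Clic6 is also a choroid plexus marker. Of 8 such markers 4 were in the table. The 3 others, Kcnj13, Kl and Otx2, had log2 fold changes of 0.40, -0.028 and -0.40, and their sum without Clic6 was 14.5 to 24.1 CPM in the KO and 15.3 to 24.8 CPM in the WT libraries.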

How the data were processed

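The authors extracted hypothalamic RNA, trimmed the reads (Trimmomatic 0.38, after FastQC 0.11.8), aligned them to GRCm38.p6 with STAR 2.5.1a and estimated reads per gene with RSEM 1.3.0, which divides reads that match several genes. They then dropped genes of low CPM and scaled the libraries by TMM. The deposited values used here are a signal, the normalized CPM of 14351 genes that the authors made in this way. Depths estimated from the steps between low CPM values were 5.47 to 20.8 M reads. Of CPM values no higher than 2.5, 81.0% to 86.5% per library came out whole within 0.03 reads, so reads were recovered only approximately. limma-voom on these estimated reads was therefore run as an alternative only. Low genes have the least precise values. The authors' table of their own comparison (fold changes and p-values) was not used, and 1 further column of values belonged to none of the samples and was left out.

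Groups were compared with limma 3.58.1 (R 4.3.3) on log2(CPM + 0.1), with lmFit, a trended eBayes and a term for condition alone, two-sided, with Benjamini-Hochberg adjustment over all 14351 genes and a threshold of 0.05. Fold changes on this scale understate the change of low genes. Exact two-sided permutation tests of the difference in mean CPM used scipy 1.17.1 (smallest p for 5 against 4 libraries, 0.0159). The fit was also run on simulated counts with the same spread in every library. These do not reproduce a library that stands as far apart as KO replicate 10. Mice are the replicates. Coding sequences were compared with blastn 2.17.0 on GENCODE M21. Adding up near-identical genes was planned for pairs of at least 90% protein identity. Coding-sequence identity was used in its place, since no protein table was used here, and no pair reached 90% on that measure. The motif was searched in RefSeq promoter windows.

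The genes, role groups, lists of related genes and cell type markers were chosen with earlier results of these data known. Values per library are given for the 10 genes with the smallest p, genes whose groups do not overlap, the 3 most abundant genes of each role, Clic1, and, chosen after their values were seen, Gstm2 and Sod3. Alternatives were other pseudocounts, filters, scalings and variance models, limma-voom on estimated reads, replicate 10 as WT, and leaving out each library.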

Additional observations from a re-analysis of the deposited data

Results flagged for a closer look

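In 10 of 84 groups of values (42 genes in KO and in WT libraries), the highest or lowest library stood apart from the rest of its group by Dixon's criterion at the 95% level. This is 11.9% of the groups, and over all genes 11.6% of groups stood apart in the same way (chance alone gives about 1 in 20, or 4.2 of 84). KO replicate 10 accounted for 7 of the 10, 6 of them high. It stood apart for 16.7% of these genes and 15.9% of all genes. It stood above the other KO libraries for Sod1 (335 CPM against 136 to 146 CPM), Prdx5 (169 CPM against 77.8 to 89.2 CPM), Prdx2 (162 CPM against 129 to 138 CPM) and Prdx4 (13.1 CPM against 7.04 to 8.79 CPM). The same held for Hmox2 (86.4 CPM against 48.8 to 53.6 CPM) and Gpx1 (57.9 CPM against 34.8 to 38.3 CPM). It stood below them for Gpx3 (184 CPM against 264 to 285 CPM).

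KO replicate 8 stood above the other KO libraries for Gpx8 (4.38 CPM against 2.20 to 2.64 CPM). WT replicate 9 stood above the other WT libraries for Gpx1 (53.3 CPM against 39.9 to 41.9 CPM) and Sod3 (10.3 CPM against 6.42 to 6.51 CPM).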

How the results depend on the processing

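No alternative put an antioxidant gene past the adjusted threshold as higher in KO mice. As lower, array weights and the fit without KO replicate 10 called 1 gene, Gstp1 (adjusted p = 0.0150 and 0.0197 in limma), and leaving out each library gave 0 to 1. Over all genes, 41 passed with all libraries, 27 when genes averaging under 5 CPM were dropped, 135 with array weights, 5 with replicate 10 as WT, and 18 (without WT replicate 1) to 87 (without KO replicate 10) when each library was left out. Of the antioxidant genes, 13 had an unadjusted p under 0.05 with array weights (31.0%, and 11.6% of all genes). When each library was left out there were 4 to 11, namely 4 (9.52%) without WT replicate 1, 5 (11.9%) without KO replicate 4 and 11 without KO replicate 10, where 4.68%, 6.82% and 10.5% of all genes had such a p. Groups did not overlap for 1 gene with replicate 10 as WT, and for 3 to 7 when each library was left out, with 5 (11.9%) without KO replicate 8 and 7 (16.7%) without WT replicate 9, where 5.15% and 6.21% of all genes did not overlap. The median log2 fold change of the set was 0.0030 in limma-voom, 0.037 without KO replicate 6 and 0.033 without WT replicate 9, of opposite sign to -0.016. The causes were not tested.

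Of 522 single-gene comparisons for 25 genes, 499 kept their direction and side of the threshold, 21 reversed (8 genes) and 2 newly passed (Gstp1). The count of 499 says little on stability, because none of the 25 genes passed in the main fit. Filters on the mean, a fit without trend and robust eBayes also leave the fold change itself unchanged. With replicate 10 as WT, the reversed log2 fold changes were 0.046 for Gclm, -0.020 for Gpx4, -0.15 for Hmox2, -0.23 for Prdx5, -0.35 for Sod1 and 0.040 for Sod2. With array weights they were -0.0056 for Hmox2 and -0.059 for Sod1. Nfe2l2 was at -0.0023 with quantile normalization and -0.0058 in limma-voom. Leaving out each library gave -0.056 to 0.0083 for Gclm, -0.061 to 0.19 for Gpx4, -0.14 to 0.022 for Gstm5, -0.0059 to 0.20 for Hmox2, -0.093 to 0.094 for Nfe2l2, -0.025 to 0.26 for Prdx5 and -0.13 to 0.22 for Sod1. Clic1 passed the threshold in 16 of 20 alternatives, the exceptions being replicate 10 as WT and the fits without WT replicate 1, 3 or 9. No paired analysis was possible because the KO and WT libraries share no replicate number. Sums of near-identical genes, planned by protein identity, were not run, because protein identity was not computed and no pair of coding sequences reached 90%.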

Other observations

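The cell type marker lists not described above had no gene past the adjusted threshold, apart from Avp, the vasopressin gene, among the 12 hypothalamic markers. Avp was at 193, 197, 199.8, 189 and 255 CPM in the KO libraries and 122, 96.05, 123 and 103 CPM in the WT libraries. Each KO library lay above each WT library, and limma gave a log2 fold change of 0.90 with a standard error of 0.10 (adjusted p = 0.00270). Endothelial markers had 7 of 8 positive fold changes and a median of 0.17 on the log2 scale, with Slco1a4, a transporter of the blood-brain barrier, at 0.36 (unadjusted p = 0.00550). Tanycyte markers had 5 of 6 positive fold changes and a median of 0.29, with Nes, the intermediate filament nestin, at 0.55 (unadjusted p = 0.0161). Microglia markers had 2 of 10 positive fold changes and a median of -0.17. Ependymal markers had 5 of 6 positive fold changes and a median of 0.10, and pan-neuronal markers 2 of 7 positive fold changes and a median of -0.024. Oligodendrocyte precursor markers had 2 of 5 positive fold changes and a median of -0.019, with Gpr17, a receptor of committed precursors, at -0.32 (unadjusted p = 0.00682). Of 5 erythroid markers only Alas2, the heme synthesis enzyme of red cells, was in the table, at 0.37 (unadjusted p = 0.0167).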
